A study of Homo sapiens with 4 samples.

Results

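The mitochondrial ribosomal protein genes were taken as all genes whose annotated symbol begins with MRPL or MRPS and continues with a number, with or without a final A, B or C. The rule uses names alone and no measured value. It found 74 genes among the 18132 genes that had a probe set of their own on the array, 47 with an MRPL symbol (large subunit) and 27 with an MRPS symbol (small subunit). RefSeq lists 77 genes that match the rule, and the other 3, MRPL23, MRPL53 and MRPS24, had no probe set with a single symbol and were not analysed here. MRPS36 is annotated as KGD4 and is no member. All 74 members passed the filter on dim probe sets, which 10958 genes passed, and all 74 lay above the floor of log2 6.75 on each of the 4 arrays.

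A549 is a cell line from a human lung adenocarcinoma. The cells were grown for 48 h with 25 μmol/L dihydroberberine plus 2 μmol/L sunitinib, with 25 μmol/L dihydroberberine, with 2 μmol/L sunitinib, or without either drug. Dihydroberberine is the reduced form of berberine, an alkaloid of plants, and sunitinib is a drug that blocks receptor tyrosine kinases. RNA from each condition was hybridised to 1 array, so no difference below has a replicate check, no test was run, and precision is limited by how few arrays there are. Signals are log2 values. Small differences were counted past a log2 difference of 0.32, which is about 25% more signal on the higher array, and large ones past 2-fold.

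Mitochondria carry their own ribosome, which translates the few messenger RNAs of the mitochondrial genome, all for subunits of the respiratory chain and ATP synthase. Its RNA is made in the organelle, but all of its proteins are encoded in the nucleus, made in the cytosol and imported. Many descend from bacterial ribosomal proteins and others have no relative among these. Below, a bacterial relative means a relative among bacterial ribosomal proteins. Their promoters are known to carry binding sites for NRF1, for the ETS factor GABP (also called NRF-2) and for YY1, general regulators of nuclear genes for mitochondria.

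Promoter sequences were found for 67 of the 74 members in RefSeq (build GRCh38.p14), each running from 250 bases before to 50 after the start of the gene, and 11 members had more than 1 listed start. Both strands were searched for 6 motifs, none of which contains another. The YY1 motif AAGATGGCG was held by 12 members (17.9%), against 4.9% of the 9081 tested genes with a promoter and 2.1% of all 27305 genes listed. The ETS motif CCGGAAG was held by 29 members (43.3%), against 22.2% of tested genes and 12.2% of all genes. The NRF1 motif GCGCANGCG was held by 14 members (20.9%), against 17.3% of tested genes and 9% of all genes. At least 1 of these 3 motifs was present in 45 members and none of them in 22.

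The YY1 motif lay after the start in 9 of its 12 members, beginning 6 to 35 bases past the first transcribed base (counted as 0). It read on the strand of the gene in 10 members and on the other strand in 2, MRPL32 and MRPL36. Its letters include ATG. The windows below, 5′ to 3′ on the strand of each gene with the motif in capitals, were cut around the motif. They are from members described further on, whose signals differed in opposite directions. Their motifs begin 8 (MRPL42), 9 (MRPS18A), 13 (MRPS30) and 23 (MRPS18B) bases past the first transcribed base.

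MRPL42 (chr12:93467513-93467539, plus strand): gattgaaacAAGATGGCGggttcgtgg
MRPS30 (chr5:44808951-44808977, plus strand): tcgcgggcaAAGATGGCGgcggccagg
MRPS18A (chr6:43687765-43687791, minus strand): aggtttttgAAGATGGCGgccctcaag
MRPS18B (chr6:30617854-30617880, plus strand): gcgtacgtcAAGATGGCGgcgtctgta

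MRPL52 held the motif at 2 places before its start, in the windows that follow.

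MRPL52 (chr14:22829780-22829806, plus strand): cgatgacccAAGATGGCGgagccgtga
MRPL52 (chr14:22829814-22829840, plus strand): cccagattcAAGATGGCGacttcctgc

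The ETS motif lay within 60 bases before the start in 19 of its 29 members. The 160 bases before the start are printed for 5 members whose array values are described below, with the letters of the ETS and NRF1 motifs in capitals on either strand. MRPS22 holds the ETS letters on the strand of the gene and, 1 base on, on the other strand. MRPL51 holds them in the reverse order of strands, and MRPS34 holds 3 copies on the other strand. MRPS33 holds the NRF1 letters and no ETS letters in this stretch.

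MRPS22 (chr3:139343834-139343993, plus strand): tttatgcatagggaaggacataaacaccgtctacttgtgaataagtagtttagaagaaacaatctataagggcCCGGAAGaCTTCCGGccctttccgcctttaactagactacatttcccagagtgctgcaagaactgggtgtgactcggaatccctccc
MRPS33 (chr7:141014953-141015112, minus strand): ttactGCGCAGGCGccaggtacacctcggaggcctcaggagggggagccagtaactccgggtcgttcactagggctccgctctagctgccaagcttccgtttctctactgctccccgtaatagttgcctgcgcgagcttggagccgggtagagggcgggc
MRPL51 (chr12:6493263-6493422, minus strand): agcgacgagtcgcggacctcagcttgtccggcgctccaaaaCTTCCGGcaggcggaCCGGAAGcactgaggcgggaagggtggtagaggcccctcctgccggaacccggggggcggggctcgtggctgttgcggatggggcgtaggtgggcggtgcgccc
MRPS34 (chr16:1773135-1773294, minus strand): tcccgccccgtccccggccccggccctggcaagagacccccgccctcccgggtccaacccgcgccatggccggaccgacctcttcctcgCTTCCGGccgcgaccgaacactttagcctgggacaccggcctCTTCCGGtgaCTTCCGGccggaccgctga
MRPS18A (chr6:43687792-43687951, minus strand): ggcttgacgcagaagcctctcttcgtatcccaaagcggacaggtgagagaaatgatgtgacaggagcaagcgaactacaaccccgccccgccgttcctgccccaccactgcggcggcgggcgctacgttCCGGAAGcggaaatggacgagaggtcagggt

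The other 3 motifs were less common among members than among tested genes. The SP1 motif GGGCGG was held by 40 members (59.7%, tested genes 77.4%, all genes 48.3%). The NF-Y motif CCAAT was held by 23 members (34.3%, tested genes 42.9%, all genes 39.7%), and the TATA motif TATAAA by 3 members (4.5%, tested genes 8.5%, all genes 14%). A match is a run of letters in this window, not a shown binding site.

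**Figure D1:**
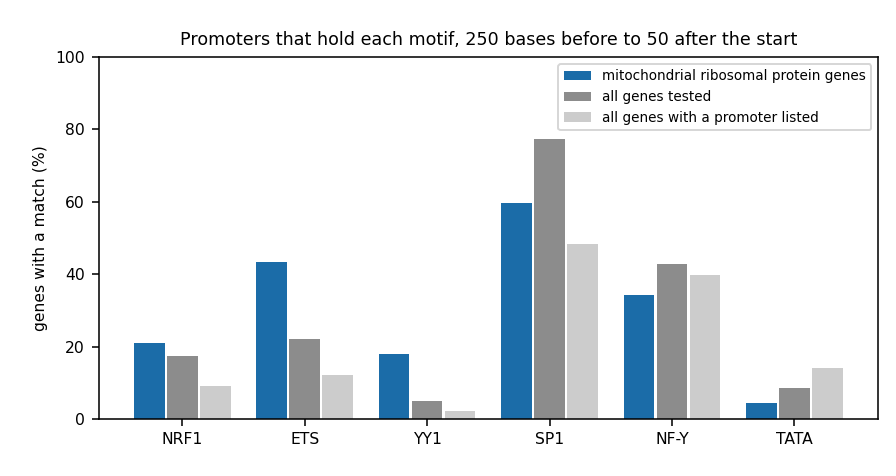
Share of promoters (vertical axis, percent of genes) that hold each of 6 motifs on either strand, for the 67 members with a promoter (blue), the 9081 tested genes (dark grey) and all 27305 genes listed (light grey). The members' share was above that of tested genes for NRF1, ETS and YY1 and below it for SP1, NF-Y and TATA.

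To see whether the arrays could be compared, their overall signal was examined first. Correlations between arrays over gene probe sets ran from 0.986 to 0.994. The dihydroberberine array had the narrowest spread of signals, with an upper quartile of 8.63, against 8.72 for the combination, 8.68 for sunitinib and 8.75 for untreated cells. Bright genes were lower than in untreated cells as a class: of the 6641 genes above the 75th percentile filter (log2 8.69), 60% were below untreated with dihydroberberine, 62.3% with sunitinib and 55.4% with the combination. Of the members, 73 belong to these genes. The 18S ribosomal RNA probes were also lowest on the dihydroberberine array, at 13.73, against 14.15 for the combination, 14.12 for sunitinib and 14.36 for untreated cells. So were the Alu repeat control, at 14.42 against 14.83 to 14.86 on the others, and the difference between 3′ and 5′ actin probes, at 0.63 against 0.82 to 0.91. The same difference for GAPDH probes was not lowest there. It was 0.045 with dihydroberberine, 0.045 with the combination, 0.038 with sunitinib and 0.025 in untreated cells. The part of these array properties in the differences below was not tested, apart from repeating the results under other scalings.

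The identity of the cells was checked with markers. Of 10 epithelial and A549 markers 8 lay above the floor on every array, while EPCAM and CDH1, defining epithelial genes, lay below it on all arrays. Of 13 markers of blood, vessel and connective tissue cells, 4 lay above the floor on each of the 3 treated arrays and 5 on the untreated array. Their summed signal was log2 10.15 with the combination, 10.57 with dihydroberberine, 10.30 with sunitinib and 10.74 in untreated cells, so it was lower on all 3 treated arrays. Against untreated cells the 5 markers that passed the filter did not all move the same way. Of these, 4 were above untreated cells with dihydroberberine, 3 with sunitinib and 1 with the combination. All 5 were lower with the combination than with sunitinib (49.2% of all tested genes), with a median of -0.25. All 5 were also lower with the combination than with dihydroberberine (50.7% of all tested genes), with a median of -0.21. CD14, a monocyte marker, had 5.76 with the combination, 6.75 with dihydroberberine and 6.27 with sunitinib, against 8.82 in untreated cells. Only its untreated value lay above the floor, and it passed the filter through that array alone. CD68, a macrophage marker, had 7.06, 8.42 and 7.33 on the treated arrays in that order and 8.16 in untreated cells, and CD79A, a B cell marker, had 7.14, 7.29 and 7.39 on them and 6.83 in untreated cells. The part of these markers in the differences below was not tested. PTPRC, the common leukocyte marker, lay below the floor on every array, at 3.81, 3.92, 3.90 and 3.84 in the same order of arrays. In bulk RNA, fewer cells with a transcript and less of it per cell cannot be told apart.

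Members differed little between arrays. Their signals ran from 7.82 to 13.48, and no member reached 2-fold in any of the 5 comparisons, where 4.57% of all tested genes did with dihydroberberine against untreated cells, 0.794% with sunitinib, 2.66% with the combination, 0.84% with the combination against sunitinib and 3.22% with the combination against dihydroberberine. The largest fold of a member was 1.61, for MRPL49. The median member signal was 11.004 with the combination, 11.19 with dihydroberberine, 11.09 with sunitinib and 11.21 in untreated cells. The combination array gave the lowest of the 4 signals in 37 members (24.2% of all tested genes), and the untreated array gave the highest in 38 members (33% of all tested genes). These ranks are of the values as deposited and depend on the scaling. The untreated array could be highest in at most 28 members after quantile normalization and 21 with arrays centred. No more members than these were below untreated cells with dihydroberberine there.

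**Figure D2:**
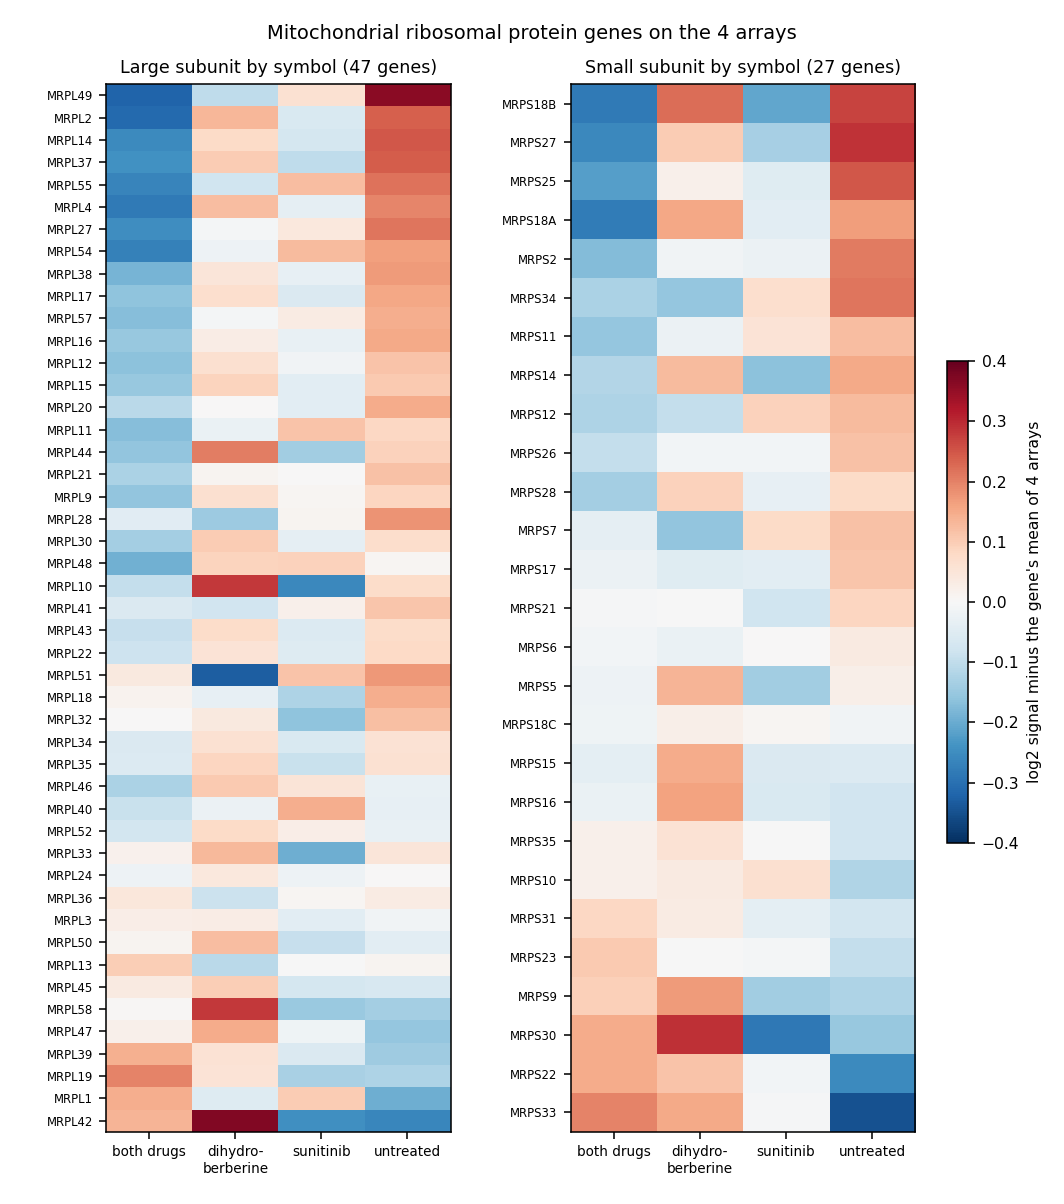
Log2 signal of each member minus its own mean over the 4 arrays (colour scale, log2 units), with arrays in columns and genes in rows, ordered in each subunit by the combination minus untreated difference. In the values as deposited, the combination column is the lowest of its row in 37 of 74 genes and the untreated column the highest in 38. These ranks depend on the scaling. The genes at the foot of each panel, among them MRPL42 and MRPS33, run the other way.

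With both drugs, 53 members were below untreated cells (52.7% of all tested genes) and the median member difference was -0.16, against -0.022 over all tested genes. It kept its sign under the other scalings, at -0.073 after quantile normalization and -0.14 with each array centred on its median. Over the 6641 bright genes the median was -0.052, against -0.154 for the 73 members among them. Past a log2 difference of 0.32, 15 members were lower (20.7% of all tested genes) and 4 were higher (18.3% of all tested genes). The share of members lower by that size was thus near that of all genes, while fewer members than genes in general were higher by it.

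With sunitinib alone, 57 members were below untreated cells (55.6% of all tested genes), but 33 after quantile normalization (46.7% of all genes) and 41 with arrays centred (44.6% of all genes). The median was -0.11 as deposited, against -0.037 over all genes, and 0.022 after quantile normalization, where all genes had 0.021. As deposited, the 6641 bright genes had a median of -0.082, against -0.107 for the 73 members among them. Past 0.32, 4 members were lower (15.6% of all tested genes) and 1, MRPS33, was higher (9.34% of all tested genes).

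With dihydroberberine alone, members lay on both sides: 41 were below untreated cells (53% of all tested genes) with a median of -0.023, but 28 after quantile normalization (45.1% of all genes) and 21 with arrays centred (40.5% of all genes), where the medians were 0.052 and 0.11. Centring moved the median of all tested genes in this comparison to 0.098, against -0.030 as deposited, and the members' median was 0.007 above that of all genes under both. As deposited, the 6641 bright genes had a median of -0.098, against -0.021 for the 73 members among them. The 4 members lower by 0.32 or more (25.6% of all tested genes) were MRPL28, MRPL49, MRPL51 and MRPS34, of which MRPL28 and MRPS34 fell short of that size after quantile normalization and with arrays centred. The 5 higher by that size (16.4% of all tested genes) were MRPL42, MRPL58, MRPS22, MRPS30 and MRPS33. Past that size 2 members were lower and 7 higher after quantile normalization, and 2 lower and 11 higher with arrays centred. The shares of all genes past that size were not computed under these scalings.

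Setting the combination against each single drug gave the difference with the other drug added. Adding sunitinib to dihydroberberine left 57 members lower (50.7% of all tested genes), with a median of -0.14, against -0.006 over all genes, and the median ran from -0.25 to -0.12 over the processing alternatives. Past 0.32, 9 members were lower (13.4% of all tested genes) and 1, MRPL51, was higher (21.9% of all tested genes). Adding dihydroberberine to sunitinib left 44 members lower (49.2% of all tested genes), with a median of -0.050, against 0.004 over all genes. At that size 3 members were lower (8.2% of all tested genes), MRPL49, MRPL54 and MRPL55, and 3 were higher (13.2% of all tested genes), MRPL19, MRPL42 and MRPS30. MRPL19 fell short of that size with its probe sets averaged, after quantile normalization and with arrays centred, and centring gave 6 members lower and 2 higher. Centring also moved the median of all genes in this comparison, to -0.054. Shares of all genes past that size were not computed there.

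To set the scale of these differences, members with several probe sets were examined. Of the 164 probe sets of members 139 lay above the floor, and 39 members had at least 2 of them. The median SD between probe sets of a member was 0.11 with the combination against untreated cells, 0.11 with dihydroberberine and 0.10 with sunitinib, over 39 members. All probe sets of a member shared a sign in 31, 24 and 23 of these 39 members in the same order of comparisons. This spread is between probe sets on the same arrays and leaves out the error between cultures.

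The large and the small subunit were then compared. With the combination, the median difference from untreated cells was -0.17 over 47 large subunit genes and -0.092 over 27 small subunit genes. With sunitinib it was -0.11 for the large and -0.069 for the small subunit, and with dihydroberberine -0.027 for the large and -0.014 for the small. The gap between the subunits, large minus small, was thus -0.076, -0.045 and -0.012. After quantile normalization the combination medians were -0.089 for the large and -0.039 for the small subunit, while both medians turned above 0 with sunitinib (0.017 and 0.047) and with dihydroberberine (0.045 and 0.10). Adding sunitinib to dihydroberberine gave -0.15 for the large and -0.075 for the small subunit, and adding dihydroberberine to sunitinib gave -0.075 and -0.012. The gap ran from -0.12 to -0.038 over the alternatives for the combination against untreated cells, but from -0.055 to 0.021 for dihydroberberine, so that its sign depended on the processing there.

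**Figure D3:**
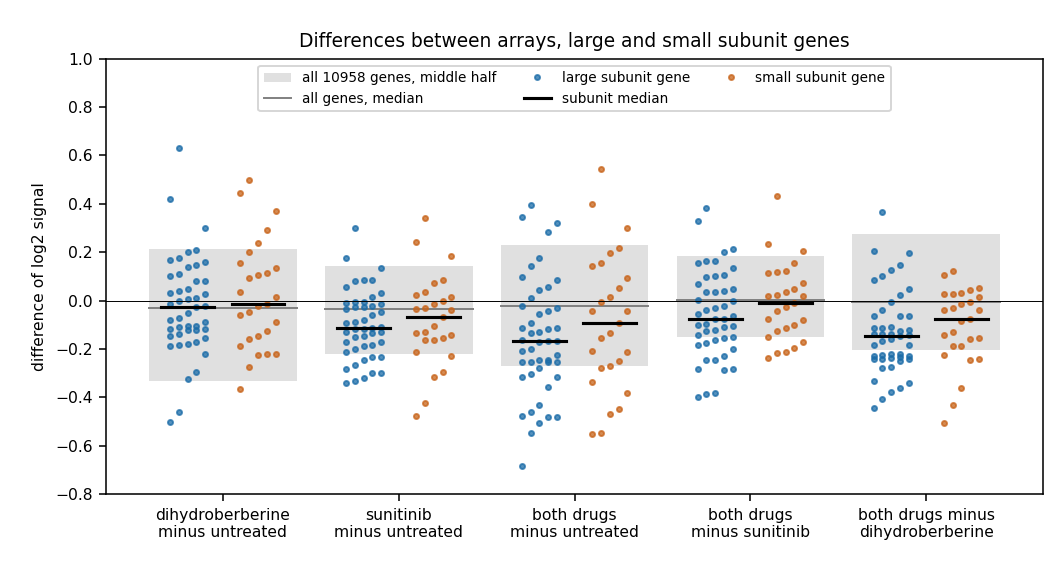
Difference of log2 signal between arrays (vertical axis, log2 units) in 5 comparisons, with 1 point per member, large subunit genes in blue and small subunit genes in orange. Black bars are the subunit medians, and the grey line and box are the median and the range between the quartiles of all 10958 tested genes. The subunit medians lie close together in each comparison, and after quantile normalization the medians of all members against untreated cells turn above 0 for sunitinib and for dihydroberberine.

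Symbols do not always give the place of a protein in the ribosome. MRPS30 and MRPS18A are proteins of the large subunit despite their names, which leaves 49 large and 25 small subunit genes. By place, the gap large minus small was 0.003 for dihydroberberine, -0.076 for sunitinib and -0.076 for the combination against untreated cells.

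Members were also grouped by whether they have a relative among bacterial ribosomal proteins. The 30 large subunit genes with a bacterial relative had a median of -0.22 with the combination against untreated cells, with 24 of 30 below 0. The 19 large subunit genes without a bacterial relative had a median of -0.14, with 13 of 19 below 0. The 16 small subunit genes with a bacterial relative had a median of -0.11, with 12 below 0. The 9 small subunit genes without a relative spread widely, with 4 below and 5 above 0 and a median of 0.095. Among these 9, MRPS27 was lowest and MRPS33 highest. After quantile normalization the 4 medians were -0.14, -0.063, -0.057 and 0.16 in the same order, with no change of sign.

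The members that were lower with both drugs included genes that differed most with sunitinib. MRPS18B, a small subunit relative of bacterial S18, had signals of 11.01 with the combination, 11.52 with dihydroberberine, 11.09 with sunitinib and 11.57 in untreated cells. The arrays with sunitinib were thus low and the arrays without it high, whether or not dihydroberberine was present. The fold was 1.39 lower with sunitinib against untreated cells and 1.42 lower with the combination against dihydroberberine. Of its paralogs, MRPS18A had 10.00 with the combination, 10.43 with dihydroberberine, 10.23 with sunitinib and 10.44 in untreated cells. MRPS18C differed least, with 10.58, 10.62 and 10.61 on the treated arrays in that order and 10.59 in untreated cells. For MRPS18A the combination minus untreated difference was -0.45 from its brightest probe set but -0.077 as the mean of both its probe sets, the second of which lay below the floor.

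MRPS27, a small subunit protein of the pentatricopeptide repeat family, had 10.50 with the combination, 10.86 with dihydroberberine, 10.63 with sunitinib and 11.05 in untreated cells. Sunitinib gave a fold of 1.34 lower and the combination 1.46 lower against untreated cells. All 4 probe sets above the floor were below 0 with the combination, at -0.55 to -0.18. MRPL37, a large subunit protein without a bacterial relative, had 11.59 with the combination, 11.93 with dihydroberberine, 11.73 with sunitinib and 12.07 in untreated cells. Both genes had the same order of arrays, lowest with the combination, then sunitinib, then dihydroberberine, then untreated.

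MRPL10, whose bacterial relative L10 anchors the stalk of the large subunit, followed sunitinib as well but not in that order. Its signals were 10.65 with the combination, 11.03 with dihydroberberine, 10.49 with sunitinib and 10.82 in untreated cells. It was 1.26-fold lower with sunitinib against untreated cells and 1.30-fold lower with the combination against dihydroberberine. After quantile normalization the sunitinib minus untreated differences of MRPL10, MRPL37 and MRPS27 fell short of 0.32 in size, while that of MRPS18B was -0.35. MRPL2, a relative of bacterial L2, which lies near the peptidyl transferase centre, was the member closest to the floor. It had 7.82 with the combination, 8.26 with dihydroberberine, 8.07 with sunitinib and 8.37 in untreated cells, and was 1.46-fold lower with the combination against untreated cells.

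Another set was lower where dihydroberberine was present. MRPL49, a large subunit protein without a bacterial relative, had 10.05 with the combination, 10.28 with dihydroberberine, 10.44 with sunitinib and 10.74 in untreated cells. Every drug array lay below the untreated one, and the combination lay below both single drugs. The fold was 1.38 lower with dihydroberberine and 1.61 lower with the combination against untreated cells, and 1.30 lower with the combination against sunitinib.

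MRPL55, related to bacterial L31, had 10.46 with the combination, 10.64 with dihydroberberine, 10.84 with sunitinib and 10.94 in untreated cells. MRPL54, with no bacterial relative, had 10.21 with the combination, 10.46 with dihydroberberine, 10.60 with sunitinib and 10.64 in untreated cells. In both, the pair of arrays with dihydroberberine lay below the pair without it. MRPS34, a protein needed for a stable small subunit, had 12.43 with the combination and 12.41 with dihydroberberine, 12.63 with sunitinib and 12.77 in untreated cells, and was 1.29-fold lower with dihydroberberine.

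MRPL51 stood apart because 1 array decided its value. It had 12.78 with the combination, 12.41 with dihydroberberine, 12.85 with sunitinib and 12.91 in untreated cells. It was 1.42-fold lower with dihydroberberine alone against untreated cells, yet 1.29-fold higher with the combination against dihydroberberine. With arrays centred on their medians, the difference between the combination and dihydroberberine no longer reached 0.32.

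Other members were higher with the drugs. MRPS33, a small subunit protein without a bacterial relative, had 12.17 with the combination, 12.13 with dihydroberberine, 11.97 with sunitinib and 11.63 in untreated cells. It was the member furthest above untreated cells with the combination, at 1.46-fold, and it was 1.41-fold higher with dihydroberberine and 1.27-fold higher with sunitinib. MRPS22, of the same class, had 10.92 with the combination, 10.89 with dihydroberberine, 10.77 with sunitinib and 10.52 in untreated cells. All 3 treated arrays lay above the untreated one in both genes. The combination minus untreated difference of MRPS22 was 0.40 from the brighter of its probe sets and 0.17 from the other.

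MRPL42, a large subunit protein without a bacterial relative, was the member furthest above untreated cells with dihydroberberine. Its signals were 10.81 with the combination, 11.05 with dihydroberberine, 10.43 with sunitinib and 10.42 in untreated cells. It was 1.55-fold higher with dihydroberberine against untreated cells and 1.30-fold higher with the combination against sunitinib, and its 3 probe sets ran from 0.44 to 0.64 in the first of these comparisons. MRPS30 had 11.02 with the combination, 11.16 with dihydroberberine, 10.59 with sunitinib and 10.72 in untreated cells. In both genes the arrays with dihydroberberine were high and those without it low.

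MRPL19, a relative of bacterial L19, had 11.58 with the combination, 11.44 with dihydroberberine, 11.25 with sunitinib and 11.26 in untreated cells. Its 2 probe sets disagreed on dihydroberberine alone, at -0.22 and 0.18, and were both above 0 with the combination against untreated cells, at 0.32 and 0.82. MRPL1, whose bacterial relative forms the mobile L1 stalk, had 9.81 with the combination, 9.61 with dihydroberberine, 9.76 with sunitinib and 9.47 in untreated cells. All 3 treated arrays lay above the untreated one. MRPL13, related to bacterial L13, had 10.69 with the combination, 10.48 with dihydroberberine, 10.59 with sunitinib and 10.60 in untreated cells, and its combination minus dihydroberberine difference of 0.20 was 0.039 from its other probe set.

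Members with many probe sets above the floor showed how far probe sets of a gene can differ. MRPL52 had the most, and its 5 probe sets ran from -0.34 to 0.18 with dihydroberberine and from -0.17 to 0.068 with the combination against untreated cells. The next 5 members had 4 each. With the combination these ran from -0.48 to -0.033 for MRPL43, from -0.23 to 0.046 for MRPL35, from -0.30 to -0.20 for MRPS11 and from -0.26 to -0.019 for MRPS21, and the range of MRPS27 is given above. Of these 6 genes, all but MRPL35 and MRPL52 had their probe sets on the same side of 0 in that comparison.

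**Figure D4:**
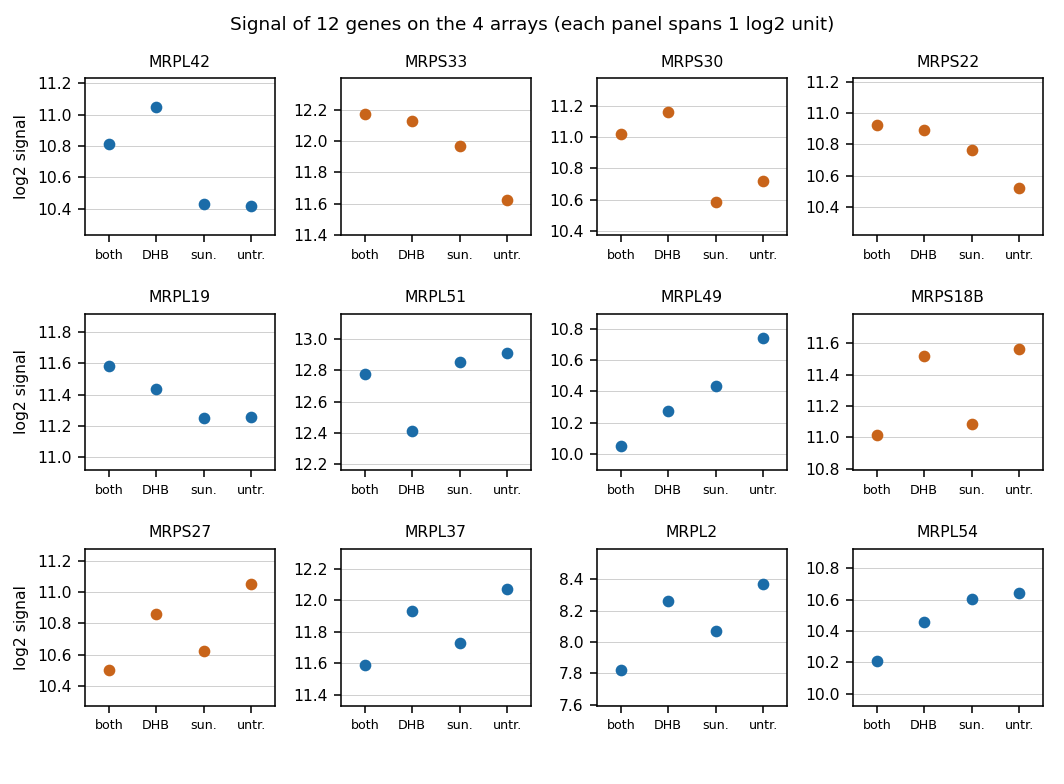
Log2 signal of 12 members (vertical axis, 1 log2 unit in each panel) on the arrays of both drugs (both), dihydroberberine (DHB), sunitinib (sun.) and untreated cells (untr.), 1 point per array, with large subunit genes by symbol in blue and small subunit genes in orange. MRPL42 and MRPS30 are high where dihydroberberine was present, MRPS18B is low where sunitinib was present, MRPL49 is lower on each drug array than in untreated cells, and MRPL51 is low on the dihydroberberine array.

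Each drug could be examined on 2 pairs of arrays with none in common, once without and once with the other drug. For dihydroberberine, the differences in the absence and in the presence of sunitinib correlated across members with Pearson's r of 0.70 and Spearman's rho of 0.66 (74 genes), against 0.45 and 0.37 over all 10958 genes. For sunitinib, r was 0.55 and rho 0.51 across members, against 0.30 and 0.27 over all genes. Genes are not independent replicates, and the points of each plot share the 4 arrays. After quantile normalization r across members was 0.65 for dihydroberberine and 0.51 for sunitinib.

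The sign was shared by 57 members (77%) for dihydroberberine and by 52 (70.3%) for sunitinib, against 62.1% and 58.4% of all genes. These counts depended on the scaling. After quantile normalization 46 members (62.2%) shared a sign for dihydroberberine and 41 (55.4%) for sunitinib, against 61.6% and 59.3% of all genes, so the excess was gone. With arrays centred 39 (52.7%) and 47 (63.5%) did, against 58.9% and 56.4% of all genes. Past 0.32, MRPL49 was lower in both dihydroberberine contrasts, out of 4 members in the first and 3 in the second, and MRPL42 and MRPS30 were higher in both, out of 5 and 3. These are 1.4% and 2.7% of members, below the 4.6% and 6% of all genes that were lower or higher in both. For sunitinib, MRPL10, MRPL37, MRPS18B and MRPS27 were lower in both, all of the 4 in the first and 4 of the 9 in the second, which is 5.4% of members and near the 4.9% of all genes.

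**Figure D5:**
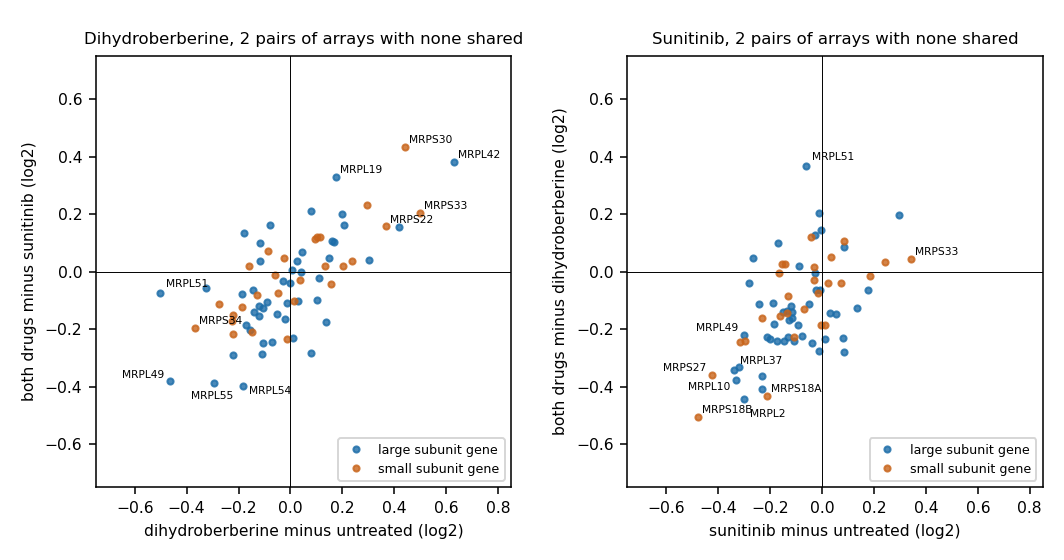
Difference of log2 signal made by a drug alone (horizontal axis) against the difference made by the same drug in the presence of the other (vertical axis), for dihydroberberine at left and sunitinib at right, with 1 point per member. Points run along the rising diagonal with r of 0.70 and 0.55, with MRPL42 and MRPS30 at upper right of the left panel, MRPS18B at lower left of the right panel, and MRPL51 above the other points of the right panel.

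The difference made by dihydroberberine with sunitinib minus that without it had a median of -0.032 over members and was below 0 in 46 of them (62.2%), against a median of 0.062 over all tested genes, with 42.9% below 0. It ran from -0.36 for MRPL48 to 0.43 for MRPL51. These values are as deposited and were not recomputed under other scalings. Centring moved the median dihydroberberine difference of all genes from 0.004 to -0.054 with sunitinib and from -0.030 to 0.098 without it. The counts below 0 and the sign of the median over all genes thus depend on the scaling.

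The cytosolic ribosome and the respiratory chain were set beside the members. The 69 genes of the cytosolic ribosome had a median of 0.053 with the combination against untreated cells, with 11 of 69 below 0. The members' median was 0.21 below theirs, and 0.12 below after quantile normalization. The cytosolic genes were brighter, with a median signal of 14.735 with the combination and 14.688 in untreated cells. Members had 11.004 and 11.205 there. The cytosolic signals lay near the top of the deposited values, and their differences had quartiles of 0.023 and 0.096. Whether signals this bright could differ as much as those of members was not tested. The 75 nuclear genes of the respiratory chain, the machinery whose mitochondrial subunits the mitochondrial ribosome makes, had a median of -0.17 (-0.12 after quantile normalization), with 65 of 75 below 0. With dihydroberberine, where members had a median of -0.023, the respiratory chain genes had -0.13 and the cytosolic ribosomal proteins 0.062 as deposited. After quantile normalization these 3 medians were 0.052, -0.080 and 0.051, so that members and cytosolic ribosomal proteins no longer differed in their medians by more than 0.001. With arrays centred they were 0.11, -0.001 and 0.19.

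Other proteins and factors of mitochondrial translation were examined as lists. Of 5 mitochondrial ribosomal proteins under other symbols 4 were measured, and PTCD3, a small subunit protein, was 1.26-fold higher with the combination at 10.10, against 9.77 in untreated cells. GADD45GIP1, a large subunit protein, had 10.75 with the combination and 10.88 in untreated cells. Of 24 measured genes for assembly of the ribosome and maturation of its RNA, 18 were below untreated cells with the combination (52.7% of all tested genes). Their median was -0.19 (-0.13 after quantile normalization). By 0.32 or more, 5 of the 24 were lower (20.7% of all tested genes) and 2 higher (18.3% of all tested genes).

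Among these assembly genes, MTRES1, which acts in rescue of stalled ribosomes, had 8.57 with the combination, 7.55 with dihydroberberine, 8.74 with sunitinib and 8.48 in untreated cells. NSUN4, a methyltransferase of the small subunit RNA, had 8.38, 9.004 and 8.55 on the treated arrays in that order and 8.504 in untreated cells. Both genes differed mainly on the dihydroberberine array, in opposite directions.

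Of 15 measured translation factors, 8 were below (52.7% of all tested genes) and 7 above untreated cells with the combination. The 8 include MTRF1, which passed the filter through the sunitinib array alone. It lay below the floor on both arrays of this comparison, at 6.53 and 6.55. GFM1, the elongation factor G of mitochondria, had 10.83 with the combination, 10.24 with dihydroberberine, 10.61 with sunitinib and 10.08 in untreated cells, and was 1.69-fold higher with the combination. MTRFR, a ribosome rescue factor, had 9.501, 8.90 and 9.69 on the treated arrays in that order and 9.96 in untreated cells, 2.09-fold lower with dihydroberberine. These folds were larger than that of any member.

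Of 12 genes for maintenance and transcription of mitochondrial DNA, 5 were below (52.7% of all tested genes) and 7 above untreated cells with the combination. POLG, the mitochondrial DNA polymerase, had 8.49 with the combination, 8.13 with dihydroberberine, 8.67 with sunitinib and 9.35 in untreated cells. TWNK, the replicative helicase, had 8.89, 8.03 and 9.03 on the treated arrays in that order and 9.17 in untreated cells. Both were lowest with dihydroberberine alone, by 2.33-fold and 2.19-fold against untreated cells.

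Of 9 measured regulators, 8 were below untreated cells with the combination (52.7% of all tested genes), but 5 after quantile normalization and 6 with arrays centred. Their median was only -0.045. Among the 8 were YY1 at -0.001, PPARGC1B at -0.004, SP1 at -0.034 and MYC at -0.045. With dihydroberberine alone 8 regulators were below as well (53% of all tested genes), with a median of -0.35. There were 7 after quantile normalization and 5 with arrays centred, with medians of -0.27 and -0.22. PPARGC1A, the coactivator that drives mitochondrial biogenesis, had 7.18 with the combination, 7.37 with dihydroberberine, 7.71 with sunitinib and 8.32 in untreated cells, 2.20-fold lower with the combination. NRF1 had 7.39, 7.48 and 7.74 on the treated arrays in that order and 8.11 in untreated cells, 1.65-fold lower with the combination. Both lay less than 2 log2 units above the floor. YY1 had 11.96, 11.49 and 11.84 on the treated arrays and 11.96 in untreated cells. GABPA, a gene of GABP, had 8.29, 7.66 and 8.04 on the treated arrays and 8.01 in untreated cells. It was the 1 regulator above untreated cells with the combination.

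Members that hold a motif were set beside those that do not. With the combination against untreated cells the median was -0.19 with the NRF1 motif and -0.13 without it, -0.13 with the ETS motif and -0.16 without it, and -0.069 with the YY1 motif and -0.17 without it. Single members with the YY1 motif printed above differed in direction, from MRPL42 at 0.40 and MRPS30 at 0.30 to MRPS18A at -0.45 and MRPS18B at -0.55.

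The promoter windows of 23 of the 67 members (34.3%) overlapped that of a gene on the opposite strand, against 26.7% of tested genes and 18.9% of all genes. MRPL46 and MRPS11 shared such a window with each other, and their combination minus untreated differences were -0.094 and -0.28. MRPL49 lay beside FAU, which encodes a protein of the cytosolic small subunit, and their differences were -0.68 and 0.018. MRPS27 lay beside PTCD2, at -0.55 and 0.50, and MRPS12 beside SARS2, the mitochondrial seryl-tRNA synthetase, at -0.25 and 0.17. These 3 pairs were chosen for their opposite signs. Of the 14 pairs of a member with a measured gene outside the family, 7 had the same sign and 7 opposite signs with the combination against untreated cells. With dihydroberberine against untreated cells 11 had the same sign and 3 opposite signs, and with sunitinib 6 and 8. With the combination against sunitinib 10 had the same sign and 4 opposite signs, and against dihydroberberine 7 and 7. These counts are from values as deposited, and signs depended on the scaling. The share of same signs over all tested genes with overlapping windows was not computed, so the counts have no background to be read against.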

How the data were processed

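Expression was measured in A549 cells on 4 arrays, 1 per condition. The authors' deposited values are log2 signals of probe sets, and the submitters' processing notes name Affymetrix Expression Console. The version, any normalization and the summarization method were not given in the sources used here. The design text names an Agilent array and the label field Cy3, but the probe sets and the labelling kit are Affymetrix, and the log2 scale was taken from the deposited values, which run from 3.01 to 15.4.

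Of 49293 gene probe sets, 44988 have 1 symbol in the platform annotation, 1832 have several and 2473 are unnamed here. For a gene with several probe sets, the brightest by mean over the 4 arrays was used. Genes were kept where at least 1 array reached a floor of log2 6.75, the median over gene probe sets. No test was run, since each condition has 1 array, and differences are given with counts past a log2 difference of 0.32 and past 2-fold beside the same over all genes, as are medians. The differences against untreated cells share the untreated array. Differences of chosen probe sets ending in _s_at or _x_at (10 and 8 members) may include signal from related genes.

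The members described are the 3 highest and 3 lowest in each comparison, those past 0.32 in both contrasts of a drug that share no array, 3 of the 6 with most probe sets above the floor (MRPL52, and MRPL35 and MRPL43 by order of symbol among 5 that tie) and the MRPS18 genes and MRPS30, 22 in all. Others are named in counts. MRPL28, MRPL58, MRPL48, MRPS12, MRPL46, MRPS11, MRPS21, MRPL32 and MRPL36 were named after their values were seen. So were the genes YY1, GABPA, PPARGC1B, SP1, MYC and MTRF1 and the neighbours. Members, lists and motifs were chosen with earlier results of these data known, and the class of MRPS18A was corrected after its values were seen. Alternatives were the mean of all probe sets, no filter, a filter at the 75th percentile, quantile normalization, centring on array medians, subunits by place and, chosen after seeing the data, leaving out probe sets ending in _s_at or _x_at. Scripts used Python 3.11.15, pandas 2.3.3, numpy 2.4.6 and matplotlib 3.10.9 and were tested on simulated data.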

Additional observations from a re-analysis of the deposited data

Results flagged for a closer look

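MRPL51 had differences of opposite sign with sunitinib in the absence and in the presence of dihydroberberine. The difference was -0.060 with sunitinib against untreated cells and 0.37 with the combination against dihydroberberine, 0.43 apart on the log2 scale. The first is small and its sign depended on the scaling: after quantile normalization the values were 0.044 and 0.37, both above 0. With 1 array in each condition this difference was not tested.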

How the results depend on the processing

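The dihydroberberine and sunitinib medians against untreated cells depended on the scaling. For dihydroberberine the median of members turned above 0, to 0.052 after quantile normalization and 0.106 with arrays centred, where 21 members were below 0. For sunitinib it turned to 0.022 after quantile normalization, with 33 members below 0. The gap large minus small with dihydroberberine turned to 0.003 with subunits by place, 0.021 with a gene's probe sets averaged and 0.007 without probe sets ending in _s_at or _x_at, a choice made after seeing the data, which also gave 14 members past a log2 difference of 0.32 in that comparison, against 9. With arrays centred, 25 members were past 0.32 with the combination against dihydroberberine, against 10. The median of all genes in that comparison moved as well, from -0.006 to -0.119. Shares of all genes past 0.32 were not computed under any alternative. The causes were not tested. Of 125 summary values recomputed under alternatives, 115 kept their direction and size within the spread between probe sets (counts within 1.5 times). Of the rest, 4 counts moved and 6 medians or gaps turned sign. The spread used is the median SD between probe sets of single genes, 0.087 to 0.122 by comparison, which is similar in size to the medians judged. The 115 thus include the sunitinib median, which went from -0.107 to -0.034 with arrays centred, so this tally says little about stability. Leaving out the filter could change none of its 20 values, since all 74 members had passed it. The 75th percentile filter kept 73 members, so its 20 values, all among the 115, could hardly change. For the 22 members described, 325 values were recomputed with probe sets averaged, after quantile normalization and without probe sets ending in _s_at or _x_at. Of these, 25 moved by more than the spread between probe sets, and none past 0.32 turned sign. Centring was left out of this count, though it moved the members' median with dihydroberberine against untreated cells from -0.023 to 0.106. No paired analysis was possible because the conditions have 1 array each and so share fewer than 2 replicate numbers, and leaving out an array would leave out a condition. The error between cultures is unknown, and a member with signal near the floor, such as MRPL2, has the least signal over background.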
